A study of Mus musculus with 10 samples.

Results

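The genes described here are 45 genes of the unfolded protein response and of the response to amino acid shortage, taken by gene name. The list was drawn up with earlier results of these data known. A total of 23 were placed in the arm named for the transcription factors ATF6 and XBP1, the chaperone arm. It holds chaperones, folding enzymes, the degradation of misfolded proteins and the sensors. The other 22 were placed in the arm driven by ATF4. The sensor gene Eif2ak3 is counted in the chaperone arm, though its product acts upstream of ATF4. A gene was taken where the platform annotation gives its symbol to a feature of the array, which held for 43 of the 45 among 23111 named features. All 23 genes of the chaperone arm and 20 of the 22 of the ATF4 arm had a feature. Phgdh and Pycr1 were not matched to a named feature and were not analysed here.

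Expression was measured on Affymetrix arrays in total RNA of bEnd3, a mouse brain endothelial line immortalised with polyoma middle T antigen. In 5 samples a pLenti-EF1α lentivirus brought in a codon-optimised mouse Gata4 cDNA followed by IRES, mCherry and puromycin resistance. In the other 5, the empty-vector (EV) samples, the virus carried the IRES, mCherry and resistance cassette without Gata4. Both groups were selected in puromycin, so no untransduced or unselected cells stand beside them. The titles name the samples biological replicates without saying whether each came from its own transduction. The p-values below therefore measure the spread between these samples. They were read as one comparison, Gata4 against EV, which asks how this GATA transcription factor alters the RNA of cultured endothelial cells.

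Proteins destined for secretion or for membranes fold in the endoplasmic reticulum (ER). When unfolded proteins build up there, the sensors IRE1 (Ern1), ATF6 and PERK (Eif2ak3) respond: IRE1 splices Xbp1 RNA, cleaved ATF6 and spliced XBP1 turn on chaperone and degradation genes, and PERK phosphorylates the initiation factor eIF2. Phosphorylated eIF2 lowers general translation and raises the translation of Atf4 RNA, and the kinase GCN2 does the same when amino acids run short. ATF4 in turn activates genes for amino acid synthesis and transport, tRNA charging and one-carbon metabolism. Arrays read the amount of RNA and neither the splicing of Xbp1, nor phosphorylation, nor translation. In a bulk RNA sample, fewer cells that express a gene and less of its RNA per cell cannot be told apart.

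Both arms have known promoter elements, which were looked up in the 250 bases before the annotated start of each gene (RefSeq, mouse build GRCm38.p6). A window was found for 38 of the 43 genes, with 41 windows in all because some genes have several starts, and none was found for Atf6, Hyou1, Manf, Nars and Wars. The ER stress response element (ERSE, the letters CCAAT, then 9 bases of any kind, then CCACG), on either strand, was present in 8 of 20 windows of the chaperone arm and in 0 of 21 of the ATF4 arm, against 37 of all 32851 windows (0.113%). The C/EBP-ATF response element, the site of ATF4 and its dimer partners (CARE, TGATGNAA, either strand), was present in 5 of 21 windows of the ATF4 arm and in 1 of 20 of the chaperone arm. It was present in 3.45% of all windows. A second ER stress element (ERSE-II, ATTGG, 1 base of any kind, CCACG) occurred in the Herpud1 window alone among these genes and in 0.0304% of all windows. The unfolded protein response element TGACGTGG occurred in 0 of the 41 and in 0.563% of all windows. A match is a run of letters and does not show that a factor binds there. The genes were listed as known members of these arms, so the excess over all windows is no independent test.

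The stretches below are those of every gene here with a CARE or an ERSE-II, whether or not it passed the test below. Of the genes with an ERSE, Hspa5, Canx and Creld2, which passed, and Hsp90b1, which did not, are shown. They are written 5′ to 3′ on the strand of the gene, with the matched element in capitals; an element on the opposite strand appears as its reverse complement. The first 4 are ERSE matches of the chaperone arm, and Hsp90b1 has a pair of them:
Hspa5 (chr2:34772005-34772063, plus strand): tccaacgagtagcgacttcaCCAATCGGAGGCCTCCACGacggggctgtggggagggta
Canx (chr11:50325780-50325838, minus strand): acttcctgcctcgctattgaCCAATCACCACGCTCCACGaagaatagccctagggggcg
Creld2 (chr15:88819500-88819558, plus strand): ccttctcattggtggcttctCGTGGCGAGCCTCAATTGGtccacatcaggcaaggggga
Hsp90b1 (chr10:86705513-86705676, minus strand): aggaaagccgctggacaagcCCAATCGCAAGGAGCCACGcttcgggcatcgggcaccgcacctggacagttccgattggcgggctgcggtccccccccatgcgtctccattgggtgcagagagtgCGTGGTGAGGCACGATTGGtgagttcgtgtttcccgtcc
Herpud1 carries a CARE followed by an ERSE-II:
Herpud1 (chr8:94386297-94386407, plus strand): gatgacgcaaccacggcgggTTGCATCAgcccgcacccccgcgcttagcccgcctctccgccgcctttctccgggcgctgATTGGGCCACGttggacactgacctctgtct
The last 5 are the CARE matches of the ATF4 arm:
Asns (chr6:7693210-7693252, minus strand): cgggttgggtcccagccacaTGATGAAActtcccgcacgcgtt
Chac1 (chr2:119351029-119351076, plus strand): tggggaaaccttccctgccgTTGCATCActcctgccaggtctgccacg
Gars (chr6:55037951-55037998, plus strand): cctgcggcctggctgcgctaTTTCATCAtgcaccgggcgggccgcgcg
Nupr1 (chr7:126625553-126625600, minus strand): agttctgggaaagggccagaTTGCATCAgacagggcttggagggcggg
Vldlr (chr19:27216800-27216847, plus strand): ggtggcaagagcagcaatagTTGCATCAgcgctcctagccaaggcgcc
ERSE matches were also found in Calr, Dnajc3, Pdia6 and Syvn1. Of the 8 genes with an ERSE, Canx passed the test as higher in the Gata4 samples, Hspa5 and Creld2 passed as lower, and 5 did not pass. Of the 6 genes with a CARE, 5 passed as lower (Asns, Gars, Nupr1, Vldlr and Herpud1) and Chac1 did not pass. Of all genes above the median expression level, where these genes lie, 46% passed, 24.3% as lower and 21.7% as higher. Of all genes 25.6% passed. Of the whole ATF4 arm, which holds 5 of the 6 genes with a CARE, 60% passed as lower. The counts of genes with an element are descriptive.

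Values are RMA log2 levels, so a difference of 1 is a factor of 2 in signal, and levels are compared between samples and not between genes. The Gata4 feature of the array read 4.83, 5.28, 5.12, 5.17 and 5.03 in Gata4 replicates 1 to 5 and 4.85, 4.93, 4.80, 4.57 and 4.59 in EV replicates 1 to 5, and the groups overlapped. The difference was 0.34 ± 0.09 (SE; adjusted p = 0.017). The cDNA was codon-optimised, so probes made for the natural sequence may not read it, and this value is a weak check of the labels. The first principal component of all genes held 73.6% of the variance and separated the groups. On the second (5.26%), EV replicates 1 and 2 (-12.9 and -14.4) lay apart from EV replicates 3 to 5 (5.55 to 13.3), with the Gata4 samples between them (-5.04 to 4.90). Where leaving out this pair changed a call or a direction, or moved a called value by over 1.5 times, the value without it is given. All 10 endothelial marker genes read above the median level of all genes, with 4 higher and 4 lower in the Gata4 samples. Of 16 markers of other cell types, 12 read below that median, among them the leukocyte gene Ptprc at 2.76 to 2.80 with Gata4 and 2.78 to 2.96 with EV. The summed level of the 16 was 8.37 to 8.60 in Gata4 and 9.12 to 9.30 in EV samples. This sum leans on Cd68, which had the highest values of the 16 (mean 7.30 with Gata4 and 8.53 with EV). By the test Cd68 and Pdgfra were lower, Rgs5 and Dcn were higher, and 12 of the 16 did not pass. The part of the summed level in the results below was not tested.

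Of the 43 genes, 23 differed between the groups (limma, Benjamini-Hochberg adjusted p under 0.05 over all 23111 genes), 20 of them lower and 3 higher in the Gata4 samples. That is 53.5% of the genes. Over all 23111 genes 25.6% were called, 13.2% lower and 12.4% higher. The 43 genes all lay above the median expression level, where calls were more frequent: 46% of the 11555 genes in that upper part were called, 24.3% lower and 21.7% higher. The share of the 43 called lower was 46.5%. The called share of the 43 thus lay near that of genes above the median level, and the share called lower lay above theirs. That upper part was not matched further to the levels of the 43 genes. These ran from percentile 57.0 (Trib3) to 99.9 (Hspa5) of all genes. The median change over all genes was -0.01. The sample values of all 43 genes are drawn in the colour map of differences from the EV mean.

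**Figure D1:**
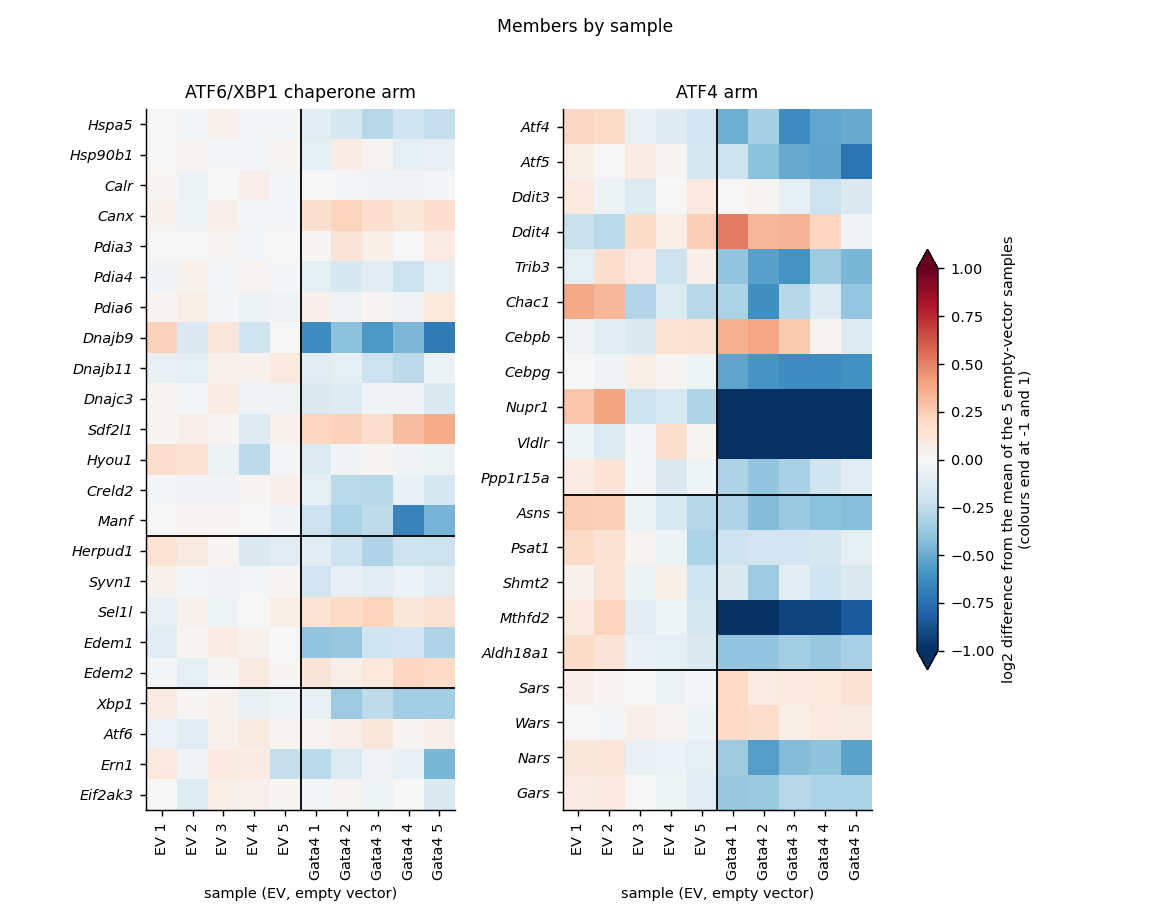
Each cell is the log2 difference of 1 gene in 1 sample from the mean of the 5 empty-vector samples, with the chaperone arm on the left and the ATF4 arm on the right; horizontal lines part the roles, the vertical line parts the groups, and colours end at -1 and 1. Nupr1, Vldlr and Mthfd2 are darkest in all 5 Gata4 samples, while empty-vector samples 1 and 2 are redder than the other 3 in Asns, Chac1 and Nupr1.

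The chaperone arm moved little and the ATF4 arm more often downwards. In the chaperone arm 8 of 23 genes fell, 3 rose and 12 did not pass, and the changes ran from -0.55 to 0.26 around a median of -0.10. In the ATF4 arm 12 of 20 genes fell, 0 rose (3 at an unadjusted p under 0.05) and 8 did not pass, and the changes ran from -1.65 to 0.27 around a median of -0.36. A called change of more than 1.5-fold was seen in 0 of 23 genes of the chaperone arm and 4 of 20 of the ATF4 arm. Over all genes it was seen in 1708 of 23111. Groups that did not overlap were seen in 10 chaperone-arm genes (7 lower, 3 higher) and 13 ATF4-arm genes (11 lower, 2 higher), against 21.1% of all genes (10.5% in each direction). That share was not computed for genes above the median level, where all 43 lie. By the test, 47.8% of the chaperone arm and 60% of the ATF4 arm were called, against 46% of genes above that level. The difference between the arms was not tested.

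**Figure D2:**
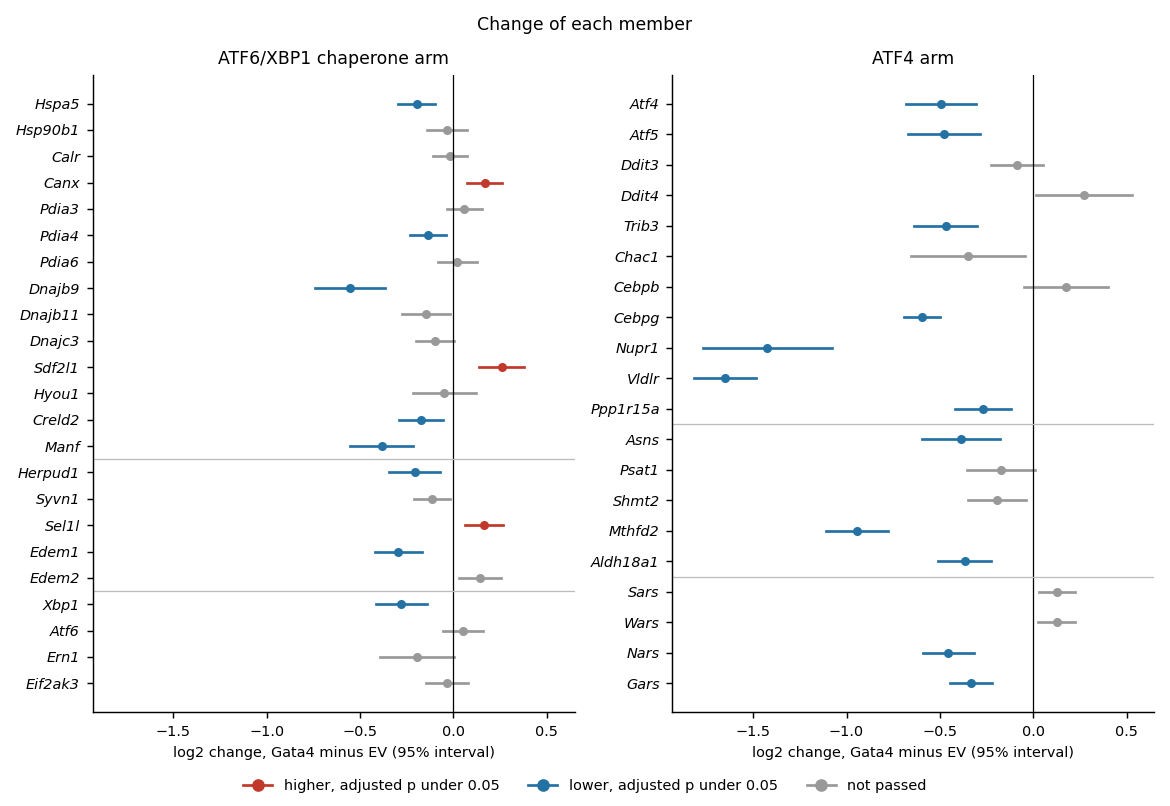
Points are log2 changes, Gata4 minus empty vector (5 samples each), with 95% intervals of the limma fit; red marks higher and blue lower at an adjusted p under 0.05, and grey did not pass. The chaperone arm lies between -0.55 and 0.26, and the ATF4 arm reaches -1.65 at Vldlr.

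Among 14 chaperones and folding enzymes, 5 fell and 2 rose. That is 50% called, 35.7% lower and 14.3% higher, against 46%, 24.3% and 21.7% of genes above the median level. The called share thus lay near that of those genes. The falls counted 3 when EV replicate 1, 4 or 5 or Gata4 replicate 2 or 3 was left out, as Creld2 and Pdia4 then no longer passed. Hspa5 encodes BiP, the main ER Hsp70 chaperone and a standard readout of ER stress. It read 12.59, 12.53, 12.42, 12.49 and 12.46 in Gata4 replicates 1 to 5 and 12.70, 12.67, 12.74, 12.68 and 12.68 in EV replicates 1 to 5. All 5 Gata4 samples lay below all 5 EV samples, but by little: the change was -0.20 ± 0.05 (SE), 1.15-fold lower (adjusted p = 0.0064). Hsp90b1, which encodes the ER Hsp90 GRP94, did not pass, with a change of -0.03 (95% interval -0.14 to 0.07; adjusted p = 0.72). The lectin chaperone calreticulin (Calr) changed by -0.02 (adjusted p = 0.84), and its membrane-bound relative calnexin (Canx) rose. Canx read 12.58, 12.64, 12.59, 12.53 and 12.59 with Gata4 and 12.45, 12.37, 12.47, 12.40 and 12.39 with EV, so that every Gata4 sample was higher, by 0.17 in the mean (adjusted p = 0.012). All 4 genes hold an ERSE in the window searched: 1 fell, 1 rose and 2 did not pass.

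The largest fall of the arm was in a cochaperone of BiP. Dnajb9 encodes ERdj4, a J-domain protein that also restrains IRE1 and is a known target of spliced XBP1. In the Gata4 samples it read 9.12, 9.33, 9.17, 9.29 and 9.04, and in the EV samples 9.97, 9.60, 9.86, 9.55 and 9.75. The groups did not overlap, and Dnajb9 fell by 0.55 on the log2 scale (9.19 ± 0.12 against 9.75 ± 0.18, SD, n = 5 each), which is 1.47-fold (adjusted p = 0.00033). The other J-domain genes gave smaller values that did not pass, -0.15 for Dnajb11 (adjusted p = 0.089; -0.20 and 0.043 with EV replicates 3 to 5 as the only controls) and -0.10 for Dnajc3 (adjusted p = 0.17). Hyou1, whose product GRP170 exchanges nucleotide on BiP, changed by -0.05 (adjusted p = 0.74; 0.06 and 0.65 with EV replicates 3 to 5).

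Manf and Sdf2l1 moved in opposite directions. Manf encodes a secreted ER-stress-induced protein that binds BiP. It read 7.86, 7.76, 7.82, 7.41 and 7.61 with Gata4 and 8.07, 8.11, 8.09, 8.07 and 8.05 with EV. The EV values were tight and the Gata4 values spread, all of them below the EV range, with a fall of 0.38 (7.69 ± 0.19 against 8.08 ± 0.02, SD; 1.31-fold; adjusted p = 0.0025). Sdf2l1, which encodes a resident of the ER chaperone complexes, read 8.76, 8.78, 8.71, 8.85 and 8.92 with Gata4 against 8.56, 8.60, 8.56, 8.41 and 8.59 with EV. Every Gata4 sample was higher, and the rise of 0.26 ± 0.06 (SE), 1.20-fold, was the largest in the arm (adjusted p = 0.0035). Creld2 (-0.18, adjusted p = 0.030) and the disulphide isomerase gene Pdia4 (-0.13, adjusted p = 0.042) fell slightly. Without EV replicates 1 and 2 both calls were lost, though the changes were of the same size: -0.19 for Creld2 (adjusted p = 0.071) and -0.13 for Pdia4 (adjusted p = 0.12). The Pdia4 call was also lost without any single sample other than Gata4 replicate 5 (adjusted p 0.053 to 0.098). The isomerase genes Pdia3 (0.06, adjusted p = 0.41) and Pdia6 (0.02, adjusted p = 0.82) did not pass.

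Genes for ER-associated degradation, which returns misfolded proteins to the cytosol, split: 2 of 5 fell and 1 rose. That is 40% lower and 20% higher, against 24.3% and 21.7% of genes above the median level. Edem1, whose product helps trim mannose from misfolded glycoproteins, read 9.02, 9.03, 9.21, 9.21 and 9.10 with Gata4 and 9.29, 9.42, 9.48, 9.44 and 9.40 with EV. The ranges were apart, and Edem1 fell by 0.29 (SE 0.06), or 1.23-fold (adjusted p = 0.0019). Its relative Edem2 changed by 0.14 without passing (adjusted p = 0.063), but passed without EV replicate 4 (0.17, adjusted p = 0.042) and without Gata4 replicate 2 (0.16, adjusted p = 0.046). Sel1l, the adaptor of the HRD1 ubiquitin ligase, read 10.14, 10.18, 10.22, 10.11 and 10.15 with Gata4 and 9.93, 10.04, 9.96, 10.004 and 10.07 with EV. All Gata4 samples were higher, by 0.16 in the mean or 1.12-fold (adjusted p = 0.020). The call was lost without EV replicates 1 and 2, at a similar change (0.15, adjusted p = 0.075), without EV replicate 1 alone (adjusted p = 0.053) and without Gata4 replicate 3 (adjusted p = 0.054). The ligase gene itself, Syvn1, was lower in every Gata4 sample than in any EV sample, by 0.11, and did not pass (adjusted p = 0.083).

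Herpud1, a stress-induced scaffold of the same ligase complex, is the chaperone-arm gene with a CARE beside its ERSE-II. It read 9.52, 9.41, 9.32, 9.41 and 9.40 with Gata4 and 9.75, 9.71, 9.64, 9.48 and 9.52 with EV, so that Gata4 replicate 1 lay above EV replicate 4 and level with EV replicate 5. The change of -0.21 passed (adjusted p = 0.029; exact permutation p = 0.016). With EV replicates 3 to 5 alone as controls it was -0.13 and did not pass (adjusted p = 0.19). It also did not pass without any one of EV replicates 1 to 3 or Gata4 replicates 2 to 5 (adjusted p 0.053 to 0.074).

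Of the 4 sensor and factor genes, Xbp1 fell and the 3 sensor genes did not pass. That is 25% called, against 46% of genes above the median level. Xbp1 read 10.51, 10.21, 10.32, 10.23 and 10.24 with Gata4 and 10.66, 10.59, 10.61, 10.50 and 10.54 with EV. Gata4 replicate 1 lay just above EV replicate 4, and the other Gata4 samples lay below all EV samples. The fall was 0.28 (10.30 ± 0.12 against 10.58 ± 0.06, SD), 1.21-fold (adjusted p = 0.0049; exact permutation p = 0.016). The files do not say which Xbp1 transcripts the feature reads.

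Atf6 read 9.60, 9.62, 9.68, 9.59 and 9.62 with Gata4 and 9.52, 9.47, 9.62, 9.66 and 9.60 with EV, and the ranges overlapped (change 0.05, 95% interval -0.06 to 0.16; adjusted p = 0.55), and against EV replicates 3 to 5 the change was -0.00096. Ern1, encoding IRE1α, read 7.65, 7.78, 7.88, 7.85 and 7.46 with Gata4 and 8.02, 7.89, 8.02, 7.997 and 7.68 with EV. Gata4 replicate 5 and EV replicate 5 were the lowest of their groups, and the change of -0.19 (95% interval -0.39 to 0.00) did not pass (adjusted p = 0.15). Without EV replicate 5 it was -0.25 and passed (adjusted p = 0.046). Eif2ak3, encoding PERK, read 7.71, 7.75, 7.68, 7.72 and 7.57 with Gata4 and 7.72, 7.59, 7.77, 7.76 and 7.74 with EV, with full overlap (change -0.03, 95% interval -0.15 to 0.08; adjusted p = 0.73). These intervals bound a change of the sensor RNAs and say nothing of sensor activity.

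In the ATF4 arm, 7 of the 11 regulators and effectors fell and 0 rose (1 at an unadjusted p under 0.05), with a median of -0.47. The share called lower was 63.6%, against 24.3% of genes above the median level. Atf4 itself read 9.33, 9.48, 9.19, 9.29 and 9.30 with Gata4 and 10.02, 10.002, 9.73, 9.68 and 9.62 with EV. The groups were apart, and EV replicates 1 and 2 were the highest samples. Atf4 RNA fell by 0.49 (9.32 ± 0.10 against 9.81 ± 0.19, SD), 1.41-fold (adjusted p = 0.00083; exact permutation p = 0.0079, the smallest that this design allows). Against EV replicates 3 to 5 alone the change was -0.36 (adjusted p = 0.0033). The related factor gene Atf5, also translated under eIF2 phosphorylation, fell by 0.48 (1.39-fold; adjusted p = 0.0012).

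Cebpg, whose product pairs with ATF4 on CARE sites, fell with little spread. It read 8.48, 8.42, 8.39, 8.38 and 8.40 with Gata4 and 9.00, 8.98, 9.06, 9.02 and 8.97 with EV. The gap between the groups was several times the range within either, with a fall of 0.60 (SE 0.04), 1.51-fold (adjusted p = 4e-07), and the value without EV replicates 1 and 2 was -0.61. Cebpb, another C/EBP factor gene, changed by 0.18 without passing (adjusted p = 0.28).

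The largest falls were in Vldlr and Nupr1, both with a CARE in the window searched. The next largest falls, in Mthfd2 and Cebpg, were in genes without a CARE there. Vldlr encodes the very-low-density-lipoprotein receptor, which ER stress is known to induce. It read 6.84, 6.75, 6.74, 6.69 and 6.47 with Gata4 and 8.30, 8.21, 8.34, 8.52 and 8.36 with EV. Every Gata4 sample lay more than a full log2 unit below every EV sample, with a fall of 1.65 (6.70 ± 0.14 against 8.35 ± 0.11, SD), 3.14-fold (adjusted p = 4.9e-09). Nupr1, encoding a small stress-induced chromatin protein, read 5.98, 6.77, 6.47, 6.51 and 6.37 with Gata4 and 8.12, 8.24, 7.63, 7.69 and 7.54 with EV. The groups were again far apart, the fall was 1.42 (6.42 ± 0.29 against 7.84 ± 0.31, SD) or 2.68-fold (adjusted p = 1.8e-05), and EV replicates 1 and 2 were the highest. Without them the change was -1.20 (adjusted p = 0.00011).

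The genes for CHOP, feedback and growth control gave mixed results, with 2 of 4 passing. Ddit3 encodes CHOP, the ATF4-induced factor used as a marker of prolonged ER stress. It read 8.36, 8.39, 8.27, 8.15 and 8.21 with Gata4 and 8.46, 8.31, 8.23, 8.36 and 8.46 with EV, and the ranges overlapped (change -0.09, 95% interval -0.23 to 0.05; adjusted p = 0.40). Trib3, a pseudokinase gene induced by ATF4 and CHOP, fell by 0.47, from 5.37 ± 0.15 to 4.90 ± 0.10 (SD; 1.38-fold; adjusted p = 0.00046), with every Gata4 sample below the EV range. Ppp1r15a, encoding GADD34, which brings the phosphatase that reverses eIF2 phosphorylation, fell by 0.27 (1.20-fold; adjusted p = 0.011), and this call was lost against EV replicates 3 to 5 (-0.20, adjusted p = 0.083). Ddit4, encoding the mTORC1 inhibitor REDD1, changed by 0.27 without passing (adjusted p = 0.13). It passed without Gata4 replicate 5 (0.35, adjusted p = 0.044) and was 0.11 (adjusted p = 0.58) against EV replicates 3 to 5.

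Chac1, whose product degrades glutathione, rested on the control pair. It read 6.995, 6.70, 7.03, 7.18 and 6.93 with Gata4 and 7.69, 7.64, 7.02, 7.18 and 7.04 with EV. EV replicates 3 to 5 lay within the Gata4 range or beside it, and replicates 1 and 2 stood above all other samples. The change was -0.35 (adjusted p = 0.095) with all controls and -0.11 (adjusted p = 0.50) with EV replicates 3 to 5. Without EV replicate 3 it was -0.42 and passed (adjusted p = 0.048).

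**Figure D3:**
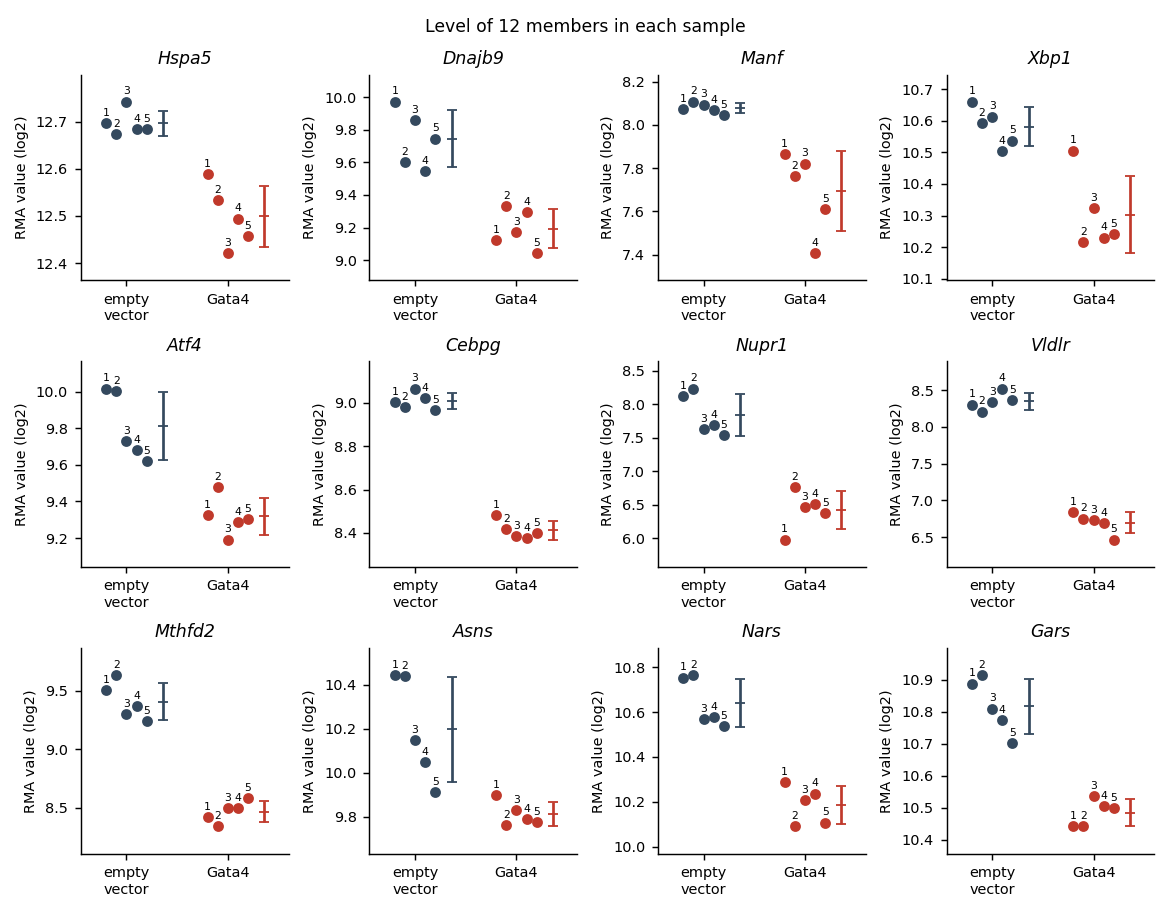
Points are RMA log2 values of 12 genes in each sample, numbered by replicate, with mean ± SD beside each group of 5; the vertical axes differ between panels and do not start at 0. Cebpg and Vldlr show tight groups far apart, whereas in Atf4, Nupr1, Mthfd2, Asns, Nars and Gars empty-vector samples 1 and 2 are the highest.

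Of the 7 genes for amino acid and one-carbon enzymes 5 were measured, and 3 of these fell. The share called lower was 60%, against 24.3% of genes above the median level. Mthfd2 encodes a mitochondrial folate enzyme that passes on one-carbon units from serine. It read 8.42, 8.34, 8.49, 8.49 and 8.58 with Gata4 and 9.50, 9.63, 9.30, 9.37 and 9.24 with EV. The groups were clearly apart, with a fall of 0.94 (8.46 ± 0.09 against 9.41 ± 0.16, SD), 1.92-fold (adjusted p = 1e-06), and -0.84 against EV replicates 3 to 5. Shmt2, the enzyme gene just before it in the mitochondrial pathway, changed by -0.19 and did not pass (adjusted p = 0.067). It passed without EV replicate 5 (-0.24, adjusted p = 0.016).

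Asns, encoding asparagine synthetase and a textbook ATF4 target, read 9.90, 9.76, 9.83, 9.79 and 9.78 with Gata4 and 10.44, 10.44, 10.15, 10.05 and 9.91 with EV. EV replicate 5 lay just above the highest Gata4 sample, and EV replicates 1 and 2 were the highest. The fall was 0.39 (9.81 ± 0.06 against 10.20 ± 0.24, SD), 1.31-fold (adjusted p = 0.0095). Without replicates 1 and 2 it was -0.22, a change 1.72 times smaller that still passed (adjusted p = 0.034). Aldh18a1, the first enzyme gene of proline synthesis, read 8.02, 8.02, 8.08, 8.03 and 8.09 with Gata4 and 8.59, 8.54, 8.35, 8.32 and 8.27 with EV. All Gata4 samples were lower, by 0.37 in the mean (1.29-fold; adjusted p = 0.00097), or -0.27 against EV replicates 3 to 5. Psat1, of serine synthesis, changed by -0.17 without passing (adjusted p = 0.18). It passed without EV replicate 5 (-0.25, adjusted p = 0.0096) and was -0.06 (adjusted p = 0.69) against EV replicates 3 to 5.

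The 4 genes for cytosolic tRNA synthetases, which charge tRNAs with amino acids, were split: 2 fell and 2 did not pass. The share called lower was 50%, against 24.3% of genes above the median level. Nars, for asparagine, read 10.29, 10.09, 10.21, 10.24 and 10.11 with Gata4 and 10.75, 10.76, 10.57, 10.58 and 10.54 with EV. Gars, for glycine, read 10.44, 10.44, 10.54, 10.50 and 10.50 with Gata4 and 10.89, 10.91, 10.81, 10.77 and 10.70 with EV. Every Gata4 sample was below every EV sample in both genes, with falls of 0.45 for Nars (1.37-fold; adjusted p = 0.00013) and 0.33 for Gars (1.26-fold; adjusted p = 0.00032). Sars, for serine, and Wars, for tryptophan, were higher in every Gata4 sample than in any EV sample, by 0.13 and 0.12 in the mean, and did not pass (adjusted p = 0.056 and 0.070).

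EV replicates 1 and 2 were the highest of the 5 EV samples in 11 of the 20 ATF4-arm genes (55.0%) and in 3 of the 23 chaperone-arm genes (13.0%). The same was true of 15.0% of all genes and of 19.8% of genes above the median level. The mean difference of the ATF4 arm from its EV mean was 0.08 and 0.09 in these samples, -0.04, -0.04 and -0.09 in EV replicates 3 to 5, and -0.36, -0.40, -0.40, -0.40 and -0.45 in the Gata4 samples. No EV sample thus came near a Gata4 sample. For the chaperone arm, the Gata4 samples read -0.08, -0.08, -0.08, -0.10 and -0.11, and the EV samples -0.02 to 0.02. With EV replicates 3 to 5 as the only controls, 11 ATF4-arm genes fell and 0 rose, with a median of -0.25, and in the chaperone arm 6 fell and 2 rose, with a median of -0.10. The share of all genes called with these controls is not given beside these counts or those of the lists below. Over all genes, every alternative used here called at least 2432 higher and 2433 lower. What sets EV replicates 1 and 2 apart was not tested.

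**Figure D4:**
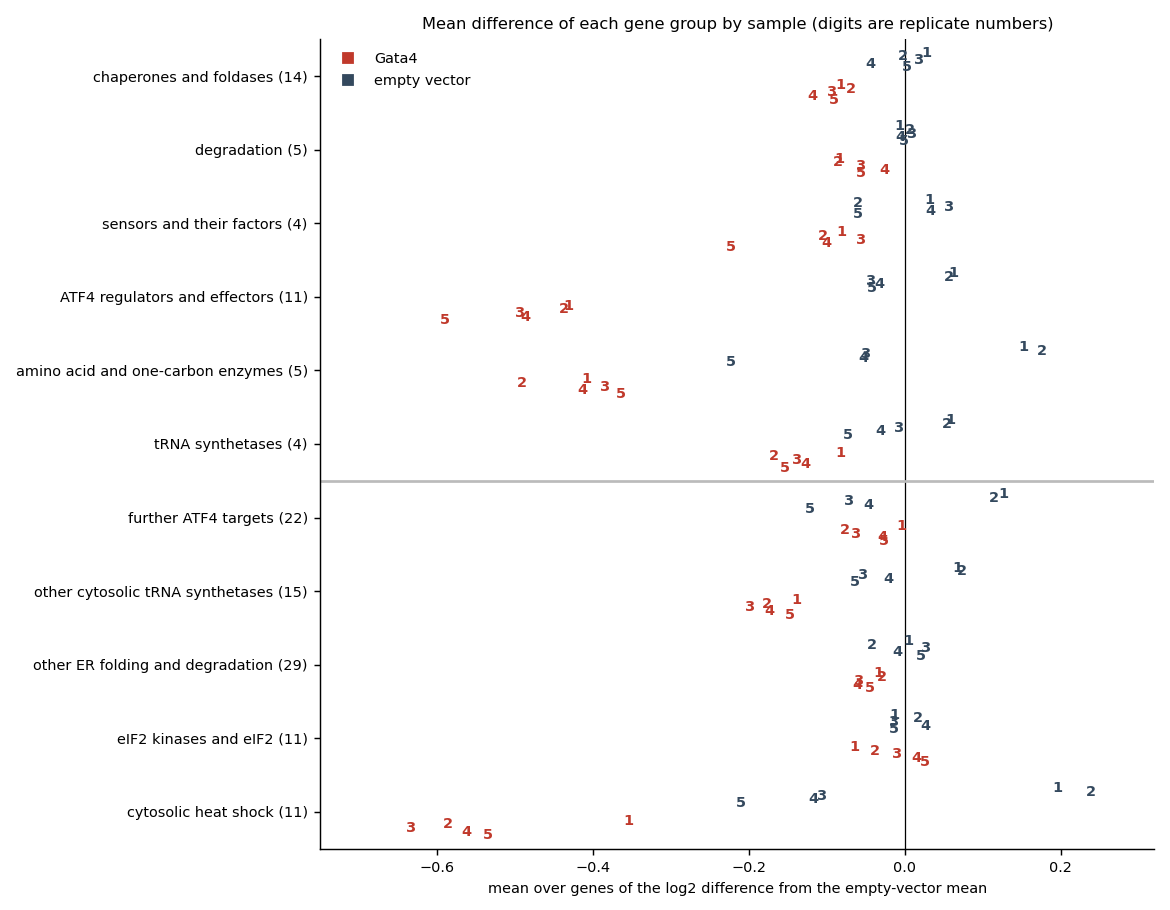
Each digit is 1 sample, named by its replicate number and placed at the mean over a gene group of the log2 difference from the empty-vector mean; the number of genes is in brackets, and the grey line parts the groups of the 43 genes from further lists. ATF4 regulators lie at -0.59 to -0.43 in Gata4 samples and -0.04 to 0.06 in empty-vector samples, while the further ATF4 targets of the 2 groups overlap. The eIF2 list holds no gene for eIF2 itself, and the heat shock list includes the mitochondrial Hspd1 and Hspe1.

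Further genes of the same pathways, listed by function, did not share a direction. Of 29 other ER folding and degradation genes measured, 8 fell and 4 rose (median -0.06). That is 41.4% called, 27.6% lower and 13.8% higher. Of all genes above the median level 46% were called, 24.3% lower and 21.7% higher, and of all genes 25.6%. The called share of this list thus lay near that of genes above the median level. Ero1a, the oxidase that supplies disulphides to the isomerases, read 10.90 to 11.002 with Gata4 and 10.33 to 10.51 with EV and rose by 0.55 (1.46-fold; adjusted p = 2.8e-06). Wfs1, encoding the ER membrane protein wolframin, rose by 0.35 (adjusted p = 0.00042). Fkbp2, an ER prolyl isomerase gene, fell by 0.46 (adjusted p = 0.0016), and Dnajc10, encoding the disulphide reductase ERdj5, fell by 0.35 (adjusted p = 8e-05). With EV replicates 3 to 5 as controls, 7 fell and 2 rose.

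Of 11 measured genes for the kinases of eIF2, its exchange factor and their regulators, 1 rose and 1 fell. That is 18.2% called, against 46% of all genes above the median level. No gene for eIF2 itself was measured, as Eif2s1 was listed but not matched to a feature. The kinase that senses uncharged tRNA, GCN2 (Eif2ak4), read 6.66, 6.98, 6.99, 7.05 and 6.98 with Gata4 and 7.20, 7.19, 7.26, 7.30 and 7.50 with EV, all Gata4 samples being lower, by 0.35 (1.28-fold; adjusted p = 0.0062). The double-stranded RNA sensor PKR (Eif2ak2) was 0.20 higher (adjusted p = 0.022), with overlapping groups, and did not pass against EV replicates 3 to 5 (0.16, adjusted p = 0.11), nor without EV replicate 1, Gata4 replicate 3 or Gata4 replicate 5 (adjusted p 0.052 to 0.057).

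A list of 22 further ATF4 targets went both ways, with 9 lower and 6 higher and a median of -0.09. The shares were 40.9% lower and 27.3% higher, against 24.3% and 21.7% of genes above the median level. Slc7a11, the cystine importer gene, read 8.96 to 9.17 with Gata4 and 10.21 to 10.63 with EV and fell by 1.35 (2.54-fold; adjusted p = 1.9e-07). Atf3, a stress-induced factor gene, fell by 1.05 (2.08-fold; adjusted p = 2e-05). In the other direction, the glutamine transporter gene Slc1a5 read 8.11 to 8.20 with Gata4 and 7.18 to 7.70 with EV and rose by 0.77 (1.71-fold; adjusted p = 1.3e-05). Stc2, encoding the secreted glycoprotein stanniocalcin 2, rose by 1.14 (2.20-fold; adjusted p = 1.9e-05). The list thus holds both falls and rises. Without EV replicates 1 and 2 the count was 6 lower and 7 higher, with a median of -0.05.

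Of 15 other cytosolic tRNA synthetase genes, 7 fell and 2 rose, with a median of -0.14. The shares were 46.7% lower and 13.3% higher, against 24.3% and 21.7% of genes above the median level. Cars, for cysteine, read 8.38 to 8.72 with Gata4 and 9.17 to 9.48 with EV and fell by 0.72 (1.65-fold; adjusted p = 2.8e-05). Rars, for arginine, fell by 0.43 (1.35-fold; adjusted p = 3.1e-05), whereas Qars, for glutamine, rose by 0.28 (adjusted p = 0.0022) and Vars, for valine, by 0.23 (adjusted p = 0.011). With EV replicates 3 to 5 as controls, 4 fell and 2 rose.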

How the data were processed

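RNA of 5 Gata4 and 5 EV samples was hybridised to Affymetrix arrays. The deposited values are log2 expression values made by the authors with RMA, per the submitters' processing notes; of its version, annotation and build, the sources used here say nothing. RMA gives all arrays nearly 1 distribution, which hides a shift of all genes. The median was 4.1562 in Gata4 replicate 1 and 4.1558 in each other array. The values come without a detection call, so low values may be background. Of 23748 features, 23111 had 1 symbol in the platform annotation, 0 had several and 637 had none. The arrays of a group correlated at 0.9964 to 0.9977, and 0 columns were identical. The number of arrays limits the precision.

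The groups were compared gene by gene in R 4.3.3 with limma 3.58.1 (lmFit, then eBayes with no trend). Adjustment was Benjamini-Hochberg over the 23111 genes, a gene being called at an adjusted p under 0.05. Single genes were also tested with an exact two-sided permutation test of the means. The fit was tested on simulated data. Genes given with every sample value were, per role, up to 4 called genes with the largest change, plus Hspa5, Xbp1, Atf6, Ern1, Eif2ak3, Atf4 and Ddit3; from each further list up to 2 called genes per direction were named. Sample values of Canx, Chac1 and Gata4, and genes named as not passed, were added to this. The members, lists and the alternative without EV replicates 1 and 2 were chosen with earlier results of these data known. Both groups number replicates 1 to 5, but same-numbered samples did not deviate together (correlations -0.0181 to 0.0869), so no pairing was used.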

Additional observations from a re-analysis of the deposited data

Results flagged for a closer look

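A sample was singled out where its gap to the nearest other sample of its group was more than 0.71 of the group's range. Of 118 groups of 5 tested, 7 held such a sample, and chance gives about 1 in 20. Sdf2l1 read 8.41 in EV replicate 4, below 8.56 to 8.60 in the others. Eif2ak3 read 7.59 in EV replicate 2, below 7.73 to 7.77. Hspa1a read 10.31 in Gata4 replicate 1, above 9.83 to 9.91. Eif2ak2 read 9.28 in EV replicate 1, below 9.44 to 9.49. Eif2ak4 read 6.66 in Gata4 replicate 1, below 6.98 to 7.05. Slc1a5 read 8.11 in Gata4 replicate 2, below 8.19 to 8.20. Dnajc10 read 10.29 in Gata4 replicate 5, below 10.40 to 10.41.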

How the results depend on the processing

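Under 20 alternatives, 10 of them leaving out 1 sample, 17 of the 23 called genes kept their direction and stayed under the threshold, and 6 lost their call in at least 1: Pdia4, Creld2, Herpud1, Sel1l, Xbp1 and Ppp1r15a. Pdia4 was lost in 11 (adjusted p up to 0.12), Herpud1 in 9 (up to 0.19), Creld2 in 7 (up to 0.078), Sel1l in 4 (up to 0.075) and Ppp1r15a in 2 (up to 0.083), and Xbp1 in the exact rank-sum test alone (0.064). Among genes that did not pass, 10 passed in at least 1 alternative. Hyou1 (0.058) and Atf6 (-0.00096) changed sign with EV replicates 3 to 5 alone.

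The count of higher ATF4-arm genes was 2 in place of 0 (Sars and Wars) with a variance trend, with genes above the median level alone, and in the exact rank-sum test. Leaving out single samples gave 0 to 1 higher and 12 to 14 lower genes in this arm, with medians of -0.41 to -0.32. With EV replicates 3 to 5 alone the median was -0.25. In the chaperone arm, leaving out single samples gave 5 to 7 lower genes against 8 (5 without EV replicate 1, without Gata4 replicate 2 and without Gata4 replicate 3) and 2 to 4 higher. The cause of these shifts was not tested. With the replicate number as a block, which the correlations of deviations do not bear out as a pairing, 12 ATF4-arm genes were lower and 0 higher, and 8 chaperone-arm genes were lower and 2 higher. Among the 43 genes, Ern1 then passed (adjusted p = 0.038), and Pdia4 (0.11) and Sel1l (0.054) did not. Over all genes 2923 were lower and 2721 higher, and 3 of 5 Gata4 samples correlated best with their own number.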

Other observations

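Heat shock genes outside the ER, which HSF1 rather than the ER sensors is known to control, were measured beside the ER genes. Of 11 measured, 6 fell, 0 rose (1 at an unadjusted p under 0.05) and 5 did not pass, with a median of -0.39. The share called lower was 54.5%, against 24.3% of genes above the median level. The list is cytosolic apart from Hspd1 and Hspe1, whose products are mitochondrial and which did not pass. The inducible Hsp70 gene Hspa1a read 10.31, 9.91, 9.89, 9.83 and 9.88 with Gata4 and 11.56, 11.65, 10.90, 10.83 and 10.71 with EV, a fall of 1.17 (2.24-fold; adjusted p = 0.00029). Its near-identical copy Hspa1b can share probes with it, so the pair is not independent. Hspb1, a small heat shock protein gene, read 5.83, 5.55, 5.54, 6.28 and 6.15 with Gata4 and 7.33, 7.36, 6.88, 6.77 and 6.79 with EV and fell by 1.15 (2.23-fold; adjusted p = 0.00018). EV replicates 1 and 2 were the highest EV samples in 9 of the 11 genes. With EV replicates 3 to 5 as the only controls, 6 fell and 0 rose (median -0.27), with -0.85 for Hspa1a and -0.94 for Hspb1.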
